A study of Homo sapiens with 18 samples.

Results

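The subject here is the response of U1U2 cells to medroxyprogesterone acetate (MPA), a synthetic progestin, measured as messenger RNA across all expressed genes. The cells are THESC, an established immortalised line of human endometrial stromal cells, engineered by CRISPR with the guide RNAs named U1U2, and their label gives them equivalent PGRA and PGRB. Its 3 libraries after 72 hours in 1 µM MPA were set against its 3 libraries after 72 hours in vehicle, 0.01% ethanol, which makes 6 of the 18 libraries of the series. The other 12 come from 2 further THESC lines treated in the same way, NT cells with a non-targeting guide, labelled WT, and promoter cells with a promoter guide, labelled PGRB-dominant, each with 3 MPA and 3 vehicle libraries. They serve here only to place the U1U2 response. All lines were maintained in blasticidin, held in low serum before treatment and treated in medium with charcoal-stripped serum, and the labels do not say whether a line is a clone or a pool, or whether replicates were separate cultures. P-values therefore set a difference between groups only against the scatter of these samples, estimated over all 18 libraries, and that scatter may be technical.

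The progesterone receptor, encoded by PGR, is a nuclear receptor that binds DNA as a dimer when a progestin occupies it, and it is made as a shorter form A and a longer form B from the same gene. In the endometrial stroma progestins drive decidualisation, the change of fibroblast-like cells into secretory cells that support implantation, with a remade extracellular matrix and with FOXO1 and HAND2 among its known regulators. MPA also binds the glucocorticoid and androgen receptors, and these receptors recognise the same palindromic DNA element as PGR. No group is labelled as lacking PGR or as given another ligand, and the part of each receptor in the response was not tested. In addition, counts summed per gene do not separate the A and B transcripts.

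To show what that element looks like at genes of the response, promoter windows of 300 bases were searched, from 250 bases before to 50 after each gene's start, taken from RefSeq on GRCh38.p14. The full motif is GNACA, then any 3 bases, then TGTNC, where N is any base, and its inner part is ACA, any 3 bases and TGT. Both read the same on either strand, and every full match is also an inner one. Of the 288 genes called at least 2-fold higher, 190 had 284 windows in the table, since a gene can have several starts, and 2 of those windows (0.704%) held the full motif. Of the 275 called at least 2-fold lower, 172 genes had 253 windows, and 0 held it. The shares to set these against are 41 of 15918 windows of tested genes (0.258%) and 137 of all 35116 windows in the table (0.390%). The inner motif was in 6.34% of the windows of genes that rose, 3.95% of those of genes that fell, 3.12% of those of tested genes and 5.37% of all windows. A match is a description of the letters, not evidence of a site, and a window without one says only that these letters are not there. Both full matches are shown, with the motif in capitals. The first is the window of CHST7, a carbohydrate sulfotransferase, at chrX:46573515-46573814 on the plus strand. The second is 1 of 7 windows of DMD, the gene of dystrophin, at chrX:32412179-32412478 on the minus strand, at an internal start of this long gene, and the counts do not show which start was used.
CHST7: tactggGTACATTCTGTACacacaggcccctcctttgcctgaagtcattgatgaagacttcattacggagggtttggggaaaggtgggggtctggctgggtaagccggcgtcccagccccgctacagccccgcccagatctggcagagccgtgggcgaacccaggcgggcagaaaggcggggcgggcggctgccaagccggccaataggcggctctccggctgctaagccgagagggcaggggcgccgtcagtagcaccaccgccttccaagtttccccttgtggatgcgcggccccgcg
DMD: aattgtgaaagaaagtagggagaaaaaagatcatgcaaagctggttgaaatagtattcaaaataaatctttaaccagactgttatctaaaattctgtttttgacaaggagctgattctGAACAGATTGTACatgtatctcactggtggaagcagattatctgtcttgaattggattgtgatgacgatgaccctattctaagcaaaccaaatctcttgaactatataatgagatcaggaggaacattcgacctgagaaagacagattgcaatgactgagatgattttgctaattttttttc
Both genes were drawn from those called at least 2-fold higher, so a difference between treatments was fixed by that choice. CHST7 had 20.7, 15.9 and 13.6 CPM (counts scaled to the TMM-adjusted library size) in the MPA libraries, against 2.58, 3.53 and 2.94 CPM in vehicle, a log2 fold change of 2.46 ± 0.19 (standard error). DMD had 211, 242 and 211 CPM in MPA, against 62.4, 42.9 and 47.4 CPM in vehicle (2.12 ± 0.14).

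The libraries were deep and similar between treatments. Totals ran from 22.2 to 28.8 M counts in U1U2 MPA, 21.4 to 31.3 M in U1U2 vehicle and 11.9 to 33.4 M over all 18 libraries. Mitochondrial genes took 1.80% to 2.19% of counts in U1U2 MPA and 1.79% to 2.53% in U1U2 vehicle. On a principal component analysis of the 500 most variable genes, treatment separated along the first component (61.1% of the variance), with scores of 19.8 to 21.4 in U1U2 MPA and -18.4 to -17.1 in U1U2 vehicle. On the second (14.9%), U1U2 vehicle replicate 1 stood apart, at 4.46 against -12.6 and -10.2 in the other two vehicle libraries, and it had the highest mitochondrial share of the 6. The stromal label fits the stromal markers measured. Of 22 such markers 21 were tested, with 28277 to 36911 counts of VIM per MPA library and 29926 to 47208 per vehicle library, and TCF21 alone was at 0. Several markers of other cells were at or near 0, with 0 to 1 counts of PECAM1 in MPA and 0 to 3 in vehicle (endothelial) and 0 in every library of CD3E and ITGAM (leukocyte). Of 15 epithelial markers CLDN3, FOXA2 and SOX17 were at 0, and the adhesion protein CDH1 had 3 counts in each MPA library and 2 to 6 in vehicle. EPCAM had 4 to 20 counts in MPA and 22 to 26 in vehicle. Keratins and MUC1 were detected, with 156 to 549 counts of KRT19 in MPA and 370 to 852 in vehicle, 143 to 336 and 176 to 358 of KRT18, 55 to 152 and 72 to 109 of KRT8, and 75 to 156 and 98 to 110 of MUC1. The summed level of the epithelial list was 21.2 to 42.2 CPM in MPA and 34.9 to 46.1 CPM in vehicle, and 0 of its 5 tested members were called by edgeR. PTPRC, the leukocyte marker CD45, had 33 to 55 counts in MPA and 89 to 113 in vehicle. TEK, an angiopoietin receptor known from endothelium, had 963 to 1482 and 1481 to 2382 counts. Of 11 smooth muscle and pericyte markers 10 were tested, and their levels were uneven. The smooth muscle myosin MYH11 was near 0, with 7 to 9 counts in MPA and 7 to 8 in vehicle, and RGS5 had 64 to 120 and 89 to 103. Whether these markers set stromal cells apart from those kinds was not tested. ACTG2 had 2046 to 3673 counts in MPA and 726 to 1307 in vehicle, and LMOD1 1696 to 3938 and 2230 to 2777.

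MPA changed 1814 of 15558 tested genes in U1U2 cells (11.7%) by edgeR's quasi-likelihood test at a Benjamini-Hochberg adjusted p under 0.05. Of these 846 were higher (5.44%) and 968 lower (6.22%), while the median log2 fold change over all tested genes was 0.03. Most changes were small. Among the genes called higher, 324 changed less than 1.5-fold, 234 by 1.5 to 2-fold, 186 by 2 to 4-fold, 66 by 4 to 8-fold and 36 by 8-fold or more. Among those called lower the same classes held 412, 281, 213, 54 and 8 genes, so that the strongest changes were mainly increases. At least 2-fold changes were called in 563 genes (3.62%), 288 higher (1.85%) and 275 lower (1.77%). The 3 MPA libraries all lay above the 3 vehicle libraries in 1789 genes (11.5%) and all below in 1912 (12.3%). Protein-coding genes accounted for 734 of the increases and 850 of the decreases among 12297 tested. Long non-coding RNAs gave 79 and 76 among 1904, and pseudogenes 0 and 2 among 349. Without U1U2 vehicle replicate 1, the library that stood apart, 964 genes were called higher and 957 lower. Without U1U2 vehicle replicate 2, 548 were called higher. With only the 2 groups fitted 489 and 560 were called. In bulk samples, fewer cells of a kind and less RNA per cell cannot be told apart, and CPM are relative to the library total.

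**Figure D1:**
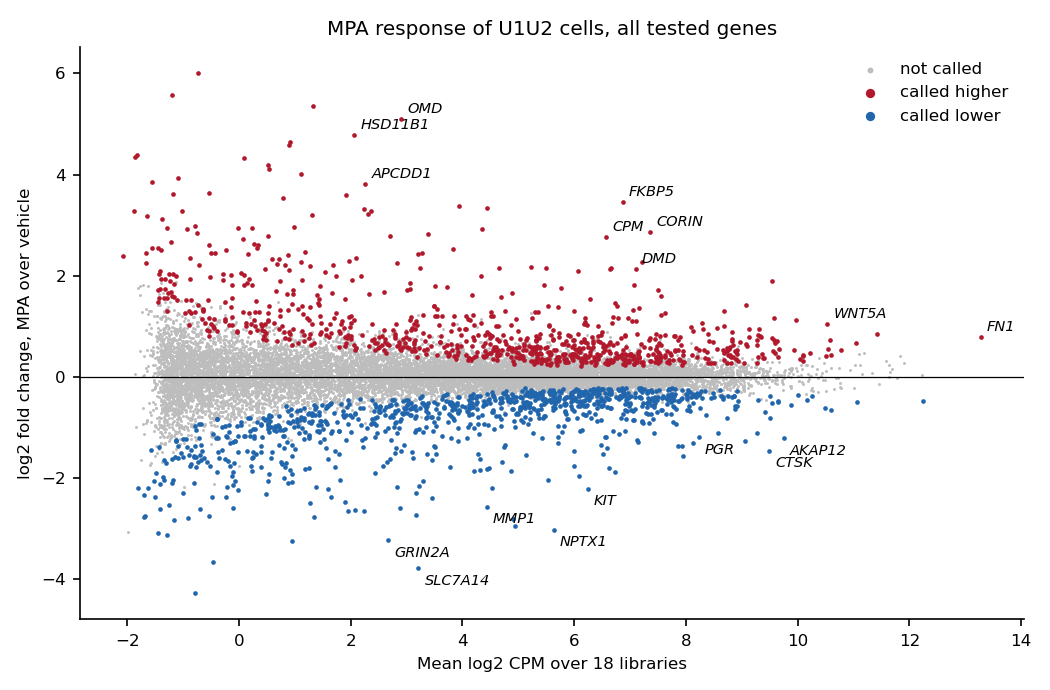
Mean level over the 18 libraries (log2 CPM, x axis) against the log2 fold change of MPA over vehicle in U1U2 cells (y axis), 1 point per tested gene, with called genes in red (higher) and blue (lower). ZBTB16, ALOX15B, CNR1, RORB and CIDEC, with 0 to 3 vehicle counts, are left out. OMD at 5.09 and SLC7A14 at -3.79 lie near the edges of the cloud, and FN1 is the most abundant gene labelled.

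PGR itself fell in this line. PGR (ENSG00000082175, at 11:101029624-101130524 on GRCh38) had 291, 264 and 226 CPM in the MPA libraries, against 674, 531 and 584 CPM in vehicle. Every MPA library lay below every vehicle library, by a log2 fold change of -1.20 ± 0.12 (adjusted p = 1.67e-06, edgeR). PGR was called lower in the other lines too, averaging 84.5 ± 9.65 CPM in NT MPA and 140 ± 17.6 CPM in NT vehicle (-0.73 ± 0.12), and 282 ± 19.4 CPM in promoter MPA and 434 ± 40.1 CPM in promoter vehicle (-0.62 ± 0.12; levels with SD, n = 3 each). In U1U2 cells it averaged 260 ± 32.7 CPM in MPA and 596 ± 72.5 CPM in vehicle. The difference between responses was not called for U1U2 minus NT (-0.47 ± 0.17, adjusted p = 0.441) or U1U2 minus promoter (-0.58 ± 0.17, adjusted p = 0.451, edgeR). Its antisense gene PGR-AS1, whose exons overlap those of PGR, averaged 1.99 CPM in MPA and 1.61 CPM in vehicle, and the strand setting of the counting is not given in the sources used here. Of 19 tested steroid receptors and cofactors 0 were called higher and 3 lower, PGR and, with small changes, the glucocorticoid receptor NR3C1 (-0.27 ± 0.08) and the co-chaperone BAG1 (-0.41 ± 0.12). The count of lower members was 1 without U1U2 vehicle replicate 2, vehicle replicate 3, MPA replicate 2 or MPA replicate 3, and only PGR was called in every alternative. For the higher members, 1 was called without MPA replicate 3. The background to set beside this and later lists is 5.44% of all tested genes called higher and 6.22% lower.

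Genes known to be induced by steroid receptors rose in most cases. Of 22 tested 19 were called higher (background 5.44%) and 0 lower, with a median log2 fold change of 1.10. The members were chosen with earlier results of these data known, so the count is a description and not a test. FKBP5, a co-chaperone that steroid receptors induce and that dampens the glucocorticoid receptor, had 176, 180 and 184 CPM in MPA, against 18.5, 15.4 and 15.3 CPM in vehicle (3.46 ± 0.10, adjusted p = 1.55e-13). The MPA libraries differed among themselves far less than from vehicle. TSC22D3, the leucine zipper protein GILZ that mediates anti-inflammatory steroid actions, had 199, 131 and 152 CPM in MPA, against 41.9, 65.6 and 66.8 CPM in vehicle (1.47 ± 0.21). IRS2, an adaptor of the insulin receptor, had 296, 300 and 258 CPM in MPA, against 109, 82.2 and 91.6 CPM in vehicle (1.60 ± 0.11). ERRFI1, an inhibitor of EGF receptor family kinases, had 289, 241 and 244 CPM in MPA, against 52.6, 53.5 and 54.8 CPM in vehicle. ZBTB16, the zinc finger repressor PLZF, was not detected in vehicle, with 181, 188 and 298 counts in MPA and 0 in each vehicle library, which makes it at least 260-fold higher when the vehicle group is set to its floor, 3 counts in all. Among the others KLF15 (2.19 ± 0.23), CEBPD (1.4 ± 0.20), TXNIP, a brake on glucose uptake (0.97 ± 0.14), GLUL, glutamine synthetase (0.80 ± 0.07) and NFKBIA, the inhibitor of NF-kappa-B (0.58 ± 0.08) rose, while MAOA (0.98 ± 0.33), CEBPB (0.32) and GADD45A (0.23) did not pass.

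The strongest increases outside that list joined secreted proteins, receptors and enzymes. OMD, osteomodulin, a small leucine-rich proteoglycan (ENSG00000127083, at 9:92414245-92424461), had 10.6, 13.0 and 11.6 CPM in MPA, against 0.276, 0.281 and 0.448 CPM in vehicle (5.09 ± 0.21). HSD11B1, which makes cortisol from cortisone inside cells (at 1:209686178-209734950), had 8.67, 6.43 and 7.60 CPM in MPA, against 0.184, 0.312 and 0.288 CPM in vehicle (4.79 ± 0.25). Both were close to absent in vehicle and present in every MPA library. CORIN, a membrane protease that processes natriuretic peptide precursors (at 4:47593998-47838106), had 296, 290 and 288 CPM in MPA, against 42.2, 37.9 and 40.1 CPM in vehicle (2.86 ± 0.18). The clearance receptor of natriuretic peptides, NPR3, rose with it (1.76 ± 0.15). PTGER2, a prostaglandin E2 receptor, had 34.8, 29.9 and 25.7 CPM in MPA, against 3.13, 2.75 and 2.78 CPM in vehicle (3.39 ± 0.15). IMPA2, an inositol monophosphatase, had 47.5, 41.8 and 45.7 CPM in MPA, against 3.46, 4.87 and 4.83 CPM in vehicle. The membrane carboxypeptidase CPM, whose symbol is not the unit, had 179, 175 and 161 in MPA, against 24.7, 25.4 and 25.7 in vehicle, in units of CPM (2.76 ± 0.08). Most of these genes were named by a rule that required no overlap between groups. Over all tested genes 11.5% lay higher without overlap.

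Further members of the upper end were ANGPTL1, an angiopoietin-like secreted protein (4.02 ± 0.44), MEDAG, a gene of adipocyte differentiation (3.60 ± 0.20), PAPLN, the matrix glycoprotein papilin (3.28 ± 0.23), ADRA2C, an alpha-2 adrenergic receptor (3.21 ± 0.37), and ABCA8, a lipid transporter (2.83 ± 0.23). ALOX15B, a lipoxygenase of arachidonic acid, had 160, 186 and 282 counts in MPA and 0 in every vehicle library, at least 245-fold higher with vehicle at that floor. RORB, a nuclear receptor, had 105 counts over the MPA libraries and 2 over the vehicle libraries, a ratio of 61.3 (16.6 to 513, a 95% interval for counting error only). CIDEC, a lipid droplet protein, had 66 and 3 counts (ratio 25.7, 8.42 to 128).

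**Figure D2:**
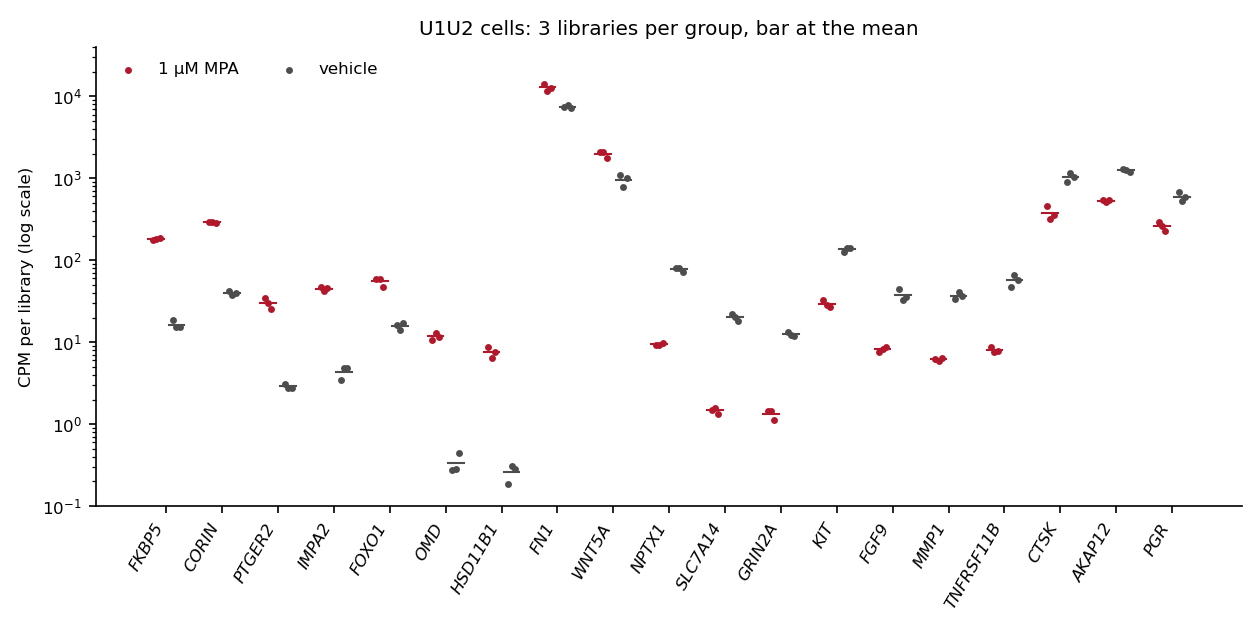
CPM of 19 genes (log scale) in each of the 3 MPA libraries (red, left of each pair) and 3 vehicle libraries (grey) of U1U2 cells, with a bar at the mean. The groups are apart for every gene shown, from OMD at 10.6 to 13.0 against 0.276 to 0.448 CPM to FN1 at 11753 to 14209 against 7220 to 7911 CPM. Lack of overlap was part of the rule by which most of them were named.

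Among the largest decreases were a transporter-like protein, a glutamate receptor subunit and a pentraxin. SLC7A14, a transporter-like protein of the cationic amino acid family (at 3:170459584-170586074), had 1.5, 1.58 and 1.33 CPM in MPA, against 22.2, 20.4 and 18.3 CPM in vehicle (-3.79 ± 0.18). GRIN2A, a subunit of NMDA glutamate receptors, had 1.45, 1.45 and 1.12 CPM in MPA, against 13.2, 12.4 and 12 CPM in vehicle (-3.23 ± 0.20). NPTX1, a neuronal pentraxin (at 17:80467148-80477843), had 9.28, 9.37 and 9.85 CPM in MPA, against 80, 79.6 and 72.5 CPM in vehicle (-3.02 ± 0.11). Their naming required that the groups did not overlap, which held for 12.3% of all tested genes on the lower side. Signalling proteins fell too. TNFRSF11B, osteoprotegerin, the decoy receptor of RANKL, had 8.81, 7.69 and 7.81 CPM in MPA, against 46.8, 66.3 and 58.0 CPM in vehicle (-2.82 ± 0.14). KIT, the receptor of stem cell factor (at 4:54657918-54740715), had 32.8, 28.2 and 27.0 CPM in MPA, against 125, 141 and 141 CPM in vehicle (-2.21 ± 0.11). Other decreases at this end were SIPA1L2, a regulator of Rap GTPases (-2.96 ± 0.13), CPA4, a carboxypeptidase (-2.73 ± 0.19), ADGRL3, a latrophilin (-2.41 ± 0.13), HTR1D, a serotonin receptor (-2.37 ± 0.21), SLC40A1, the iron exporter ferroportin (-2.16 ± 0.18), and MTUS1 (-2.04 ± 0.10).

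Measured by the change in mean CPM, which favours abundant genes, fibronectin headed the increases and GREM1, the BMP antagonist gremlin, the decreases. FN1, fibronectin (at 2:215360440-215436172), had 14209, 11753 and 12768 CPM in MPA, against 7394, 7911 and 7220 CPM in vehicle (0.78 ± 0.19). WNT5A, a WNT ligand of the non-canonical pathway, had 2090, 2097 and 1746 CPM in MPA, against 1089, 791 and 1003 CPM in vehicle (1.04 ± 0.12). In the other direction GREM1 had 4562, 3987 and 3492 CPM in MPA, against 5436, 5594 and 5715 CPM in vehicle (-0.48 ± 0.15), and SCD, stearoyl-CoA desaturase, had 2029, 1649 and 1626 CPM in MPA, against 2249, 2660 and 2554 CPM in vehicle (-0.49 ± 0.13). Both changes were small, GREM1 was not called with the replicate block or with only the 2 groups fitted, and neither was called without vehicle replicate 2, vehicle replicate 3, MPA replicate 2 or MPA replicate 3. AKAP12, a scaffold of protein kinase A, had 550, 509 and 547 CPM in MPA, against 1292, 1250 and 1194 CPM in vehicle (-1.22 ± 0.07). CTSK, the collagen-cleaving lysosomal protease cathepsin K, had 453, 316 and 353 CPM in MPA, against 892, 1164 and 1043 CPM in vehicle (-1.46 ± 0.17). GPNMB, a transmembrane glycoprotein of lysosomes, had 334, 281 and 303 CPM in MPA, against 665, 780 and 777 CPM in vehicle. The gap junction protein GJA1 (-0.65 ± 0.13) and the small GTPase RND3 (-0.63 ± 0.14) fell by less in proportion.

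Known decidual genes moved both ways: of 22 tested 6 were called higher and 7 lower (background 5.44% and 6.22%), with a median of 0.16. FOXO1, a forkhead factor required for decidualisation (at 13:40469953-40666597), had 59.0, 59.8 and 47.7 CPM in MPA, against 16.1, 14 and 17.3 CPM in vehicle (1.81 ± 0.12). HAND2, a transcription factor of the stroma, had 26.5, 30.0 and 41.6 CPM in MPA, against 15.4, 12.7 and 12 CPM in vehicle (1.30 ± 0.20), and its antisense neighbour HAND2-AS1, whose exons overlap it, rose as well (0.83), so that their reads may be mixed. Among the decreases were BMP2, with 3, 2.17 and 2.49 CPM in MPA, against 12.8, 12.7 and 12.3 CPM in vehicle (-2.30 ± 0.16), IGFBP3 (-1.11 ± 0.09), CLU, clusterin (-1.31 ± 0.15) and HOXA11 (-0.58 ± 0.09). PRL and IGFBP1, the classical secreted products, did not pass the filter on low counts. With only the 2 groups fitted, 3 decidual genes were called higher.

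FOXO factors and their targets had 8 of 20 tested called higher and 2 lower (median 0.22, background 5.44% and 6.22%). The list holds FOXO1 itself. DEPP1, a FOXO target that acts on autophagy, had 9.84, 11.2 and 15.6 CPM in MPA, against 1.06, 1.62 and 0.959 CPM in vehicle (3.31 ± 0.24). BCL6, a transcriptional repressor (0.85 ± 0.16), and FOXO3 (0.51 ± 0.08) were higher. BCL2L11, the pro-apoptotic protein BIM and a known FOXO target, was lower (-0.65 ± 0.13), as was PIK3IP1, an inhibitor of PI3 kinase (-1.08 ± 0.22).

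Clock genes were changed in 10 of 17 cases, 4 higher and 6 lower (background 5.44% and 6.22%). PER1, a repressor of the clock and a direct target of steroid receptors, had 4.64, 6.43 and 9.95 CPM in MPA, against 1.29, 1.53 and 1.31 CPM in vehicle (2.35 ± 0.29). PER3, its paralogue, went the other way, with 5.86, 4.93 and 5.52 CPM in MPA, against 16.3, 17.2 and 17.5 CPM in vehicle (-1.64 ± 0.15). The activators NPAS2 (0.67 ± 0.09) and BMAL1 (0.52 ± 0.10) rose, and the repressors NR1D2 (-0.68 ± 0.11) and CIART (-1.11 ± 0.17) fell. Each group was sampled at a single time, so no rhythm was measured. Of 27 immediate early and MAPK feedback genes 8 rose and 1 fell. FOS, part of the AP-1 factor, had 3.80, 2.53 and 2.52 CPM in MPA, against 0.323, 0.531 and 0.543 CPM in vehicle (2.61 ± 0.26), and SPRY1, an inhibitor of receptor tyrosine kinase signalling, stood at 1.07 ± 0.14.

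Homeobox and other stromal transcription factors had 6 higher and 7 lower of 44 tested (13.6% and 15.9%, background 5.44% and 6.22%). NR2F1, a nuclear receptor of the COUP-TF family, had 89.4, 107 and 86.8 CPM in MPA, against 49.7, 40.5 and 47.1 CPM in vehicle (1.04 ± 0.10). PRRX1, a factor of mesenchymal cells, fell (-0.81 ± 0.10). HOXA10 (-0.10) and NR2F2 (0.23), both tied to decidualisation, did not pass. Without MPA replicate 2 the number of lower members was 4.

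Growth factors and their receptors had 6 members higher and 9 lower of 30 tested (median -0.11, background 5.44% and 6.22%). FGF9, a fibroblast growth factor, had 7.64, 8.24 and 8.79 CPM in MPA, against 44.4, 33.2 and 36.1 CPM in vehicle (-2.20 ± 0.15). NRG1, a ligand of ERBB receptors, had 10.3, 9.01 and 9.99 CPM in MPA, against 34.0, 32.2 and 35.7 CPM in vehicle (-1.80 ± 0.10), and its receptor ERBB3 was lower too (-1.17 ± 0.21). HGF, hepatocyte growth factor (0.51 ± 0.12), and its receptor MET (0.44 ± 0.09) rose. ROR1, a receptor of WNT5A, had 2.81, 3.98 and 3.37 CPM in MPA, against 0.461, 0.156 and 0 CPM in vehicle, and the related ROR2 was higher as well (1.05 ± 0.15). In the insulin-like growth factor axis 4 of 17 members were higher and 3 lower. IGF1 had 0.656, 0.679 and 0.716 CPM in MPA, against 0.0461, 0.0937 and 0.0959 CPM in vehicle, low in both groups, while its binding proteins IGFBP3 (340, 374 and 373 against 788, 716 and 837 CPM) and IGFBP5 (-2.18 ± 0.24) fell. PAPPA2, a protease that cleaves IGF binding proteins, rose (0.97 ± 0.18).

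Among developmental pathways, WNT genes had 5 higher and 3 lower of 20 (background 5.44% and 6.22% for each list here). The count of higher WNT members was 3 without vehicle replicate 3 or without MPA replicate 3. APCDD1, a membrane inhibitor of WNT signalling, had 5.81, 5.84 and 6.31 CPM in MPA, against 0.415, 0.406 and 0.448 CPM in vehicle (3.81 ± 0.20). AXIN2, a feedback inhibitor induced by canonical WNT signalling, rose (0.94 ± 0.17) and WNT2 fell, with 36.7, 35.8 and 38.6 CPM in MPA, against 95.2, 107 and 107 CPM in vehicle. In the BMP pathway 5 of 26 genes were higher and 3 lower. The antagonist NOG, noggin, had 6.42, 13.8 and 9.95 CPM in MPA, against 1.98, 0.625 and 0.767 CPM in vehicle (3.23 ± 0.40), and ID1, a transcriptional target of BMPs, rose (1.42 ± 0.28). TGF-beta and activin genes had 6 higher and 1 lower of 20, the lower one not called without vehicle replicate 2 or MPA replicate 2. INHBB, the beta B subunit of activin and inhibin, had 6.14, 6.61 and 6.82 CPM in MPA, against 1.43, 1.37 and 1.21 CPM in vehicle (2.29 ± 0.17), and LTBP1, which stores TGF-beta in the matrix, had 886, 660 and 706 against 249, 305 and 292 CPM. Hedgehog and Notch genes had 5 higher and 1 lower of 19, among them the Hedgehog receptor PTCH1 (0.66 ± 0.13), the decoy HHIP (1.02 ± 0.15) and the co-receptor GAS1 (1.21 ± 0.13). The lower one, BOC, was not called without vehicle replicate 2 or MPA replicate 1. In the family of CCN matricellular proteins CCN4 had 44.5, 37.1 and 35.5 CPM in MPA, against 4.65, 5.56 and 5.21 CPM in vehicle, and CCN3 had 2.11, 2.13 and 1.91 CPM in MPA, against 12, 12.7 and 12.2 CPM in vehicle.

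**Figure D3:**
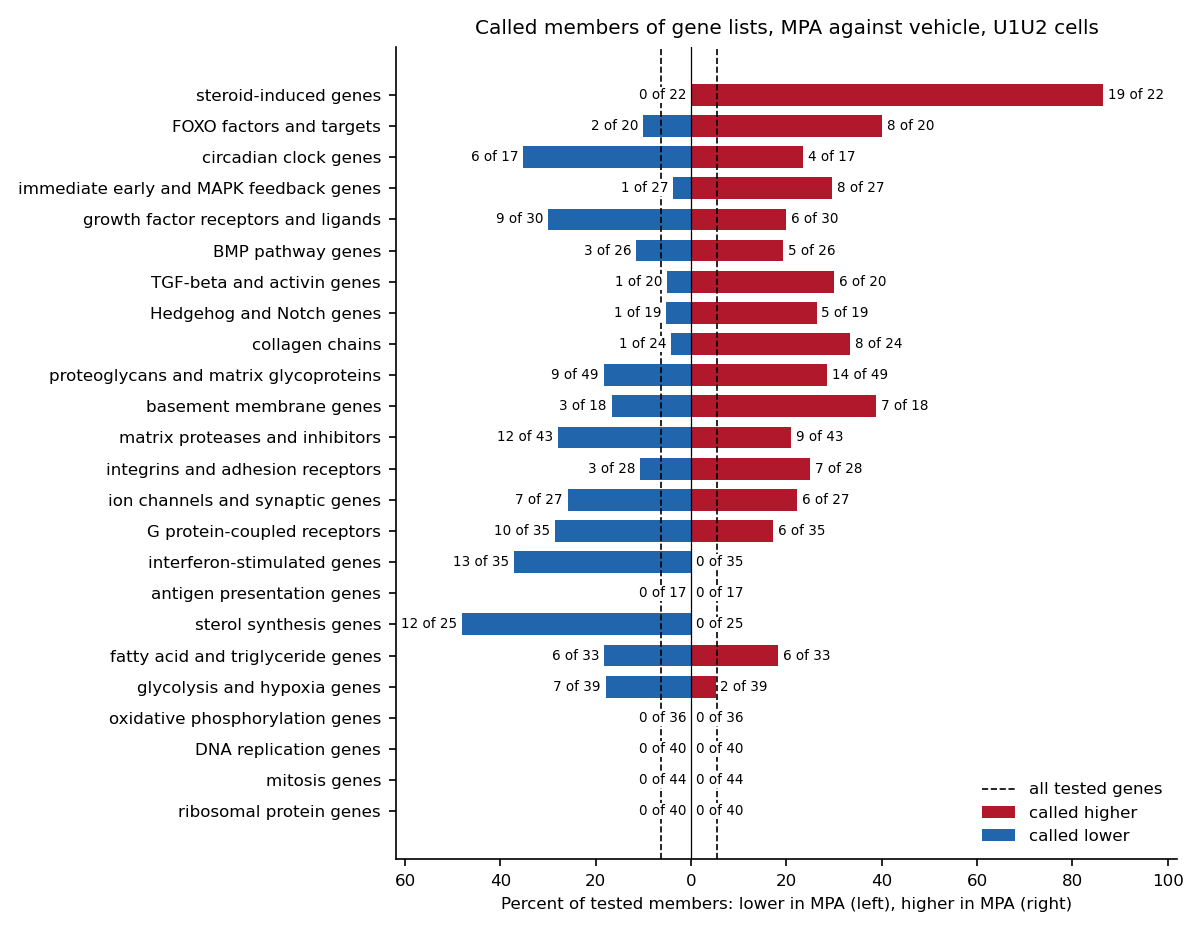
Percent of tested members called lower (blue, left) and higher (red, right) under MPA in U1U2 cells for 24 of the 50 gene lists, with the numbers printed, and dashed lines at 6.22% and 5.44%, the shares of all tested genes. Steroid-induced genes reach 19 of 22 higher, sterol synthesis genes 12 of 25 lower, and DNA replication and mitosis genes 0 in either direction. Lists and members were chosen with earlier results of these data known, and the 24 shown after their values were seen.

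Genes of the extracellular matrix changed in both directions. Of 24 collagen chains 8 rose and 1 fell (median 0.46, background 5.44% and 6.22% for each list here). COL1A1, the main chain of type I collagen, had 2847, 3770 and 3857 CPM in MPA, against 2327, 1734 and 1796 CPM in vehicle (0.84 ± 0.17), and COL5A2 (0.73 ± 0.12), COL8A1 (0.83 ± 0.09) and COL4A1 of basement membranes (0.53 ± 0.10) rose too. The single decrease, COL14A1, had 159, 111 and 133 CPM in MPA, against 206, 249 and 220 CPM in vehicle. A second chain was called lower without vehicle replicate 1 or MPA replicate 3. Proteoglycans and matrix glycoproteins had 14 higher and 9 lower of 49 (median 0.15). Small leucine-rich proteoglycans, which bind collagen fibrils, split: OMD, OGN (2.08 ± 0.22) and ASPN (0.82 ± 0.16) rose, while the abundant members LUM, with 624, 481 and 424 CPM in MPA, against 811, 937 and 934 CPM in vehicle, and DCN (-0.57 ± 0.12) fell. PRELP had 8.86, 8.37 and 11.1 CPM in MPA, against 36.4, 33.7 and 31.3 CPM in vehicle (-1.83 ± 0.15), and FMOD was lower as well (-1.09 ± 0.17). Basement membrane genes had 7 higher and 3 lower of 18. LAMA3, a laminin alpha chain, had 3.23, 3.76 and 4.81 CPM in MPA, against 0.691, 0.906 and 0.831 CPM in vehicle (2.27 ± 0.23), NID1, nidogen, rose (0.77 ± 0.08) and LAMA4 fell (-0.75 ± 0.08).

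Proteases and their inhibitors had 9 members higher and 12 lower of 43 (background 5.44% and 6.22% for each list here). Among the metalloproteinases, which cleave collagen and proteoglycans, those lower included MMP1 with 6.18, 5.97 and 6.41 CPM in MPA, against 33.3, 40.6 and 36.3 CPM in vehicle (-2.57 ± 0.11), MMP3 with 0.750, 0.679 and 0.886 CPM in MPA, against 4.28, 6.81 and 4.83 CPM in vehicle (-2.77 ± 0.29), MMP2 (-0.70 ± 0.16) and the aggrecanase ADAMTS5 (-1.36 ± 0.14). Higher were ADAMTS2, which trims procollagen (1.81 ± 0.11), ADAMTS1, with 1230, 1022 and 984 CPM in MPA, against 457, 498 and 489 CPM in vehicle, and PLAT, tissue plasminogen activator (1.11 ± 0.12). With only the 2 groups fitted 5 were called higher. Integrins and adhesion receptors had 7 higher and 3 lower of 28, among them ITGA10, a collagen receptor subunit, with 3.94, 2.85 and 4.33 CPM in MPA, against 0.553, 0.718 and 0.703 CPM in vehicle, and ITGA5, the fibronectin receptor subunit (1.06 ± 0.18). Contractile genes were called higher in 4 of 29 cases, 2 without MPA replicate 3, with ACTG2, a smooth muscle actin, at 1.53 ± 0.19. Over the 11 smooth muscle and pericyte markers, the summed level was 352 to 526 CPM in MPA and 293 to 309 CPM in vehicle. MCAM had 1274 to 2803 counts in MPA and 1137 to 1955 in vehicle, and the desmin gene DES 8 to 39 and 6 to 14. The part of such cells in these results was not tested.

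Receptors and channels changed in both directions. G protein-coupled receptors had 6 higher and 10 lower of 35 (background 5.44% and 6.22% for each list here). OXTR, the oxytocin receptor, had 951, 1083 and 881 CPM in MPA, against 733, 635 and 691 CPM in vehicle (0.50 ± 0.09). RXFP1, the relaxin receptor (-1.41 ± 0.20), BDKRB2, a bradykinin receptor (-1.21 ± 0.13), F2RL2, a protease-activated receptor (-1.20 ± 0.10), and ADRA2A, an alpha-2 adrenergic receptor (-1.28 ± 0.15), fell. Of the prostaglandin E2 receptors PTGER2 rose, as above, and PTGER4 fell (-0.61 ± 0.10). Ion channel and synaptic genes had 6 higher and 7 lower of 27, with GRIA1, a subunit of AMPA glutamate receptors (1.66 ± 0.14), the adhesion protein NRXN3 (1.22 ± 0.13) and the potassium channel KCNK2 (0.89 ± 0.07) among the increases and KCND2 (-1.79 ± 0.21) among the decreases. Of the axon guidance genes 4 rose and 7 fell of 33. SEMA3C (0.95 ± 0.11) was higher, as was its receptor NRP2 (0.84 ± 0.08), a member of the list of vascular factors, and SEMA3A (-1.56 ± 0.10) and SEMA3D (-1.55 ± 0.15) lower. Amino acid transporters had 4 higher and 2 lower of 20. SLC7A2, an arginine transporter, had 166, 168 and 151 CPM in MPA, against 63.5, 58.0 and 67.5 CPM in vehicle (1.36 ± 0.11).

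Interferon-stimulated genes fell in 13 of 35 cases (background 6.22%) and rose in 0 (background 5.44%), with a median of -0.48. IFIT1, an RNA-binding antiviral protein, had 73.8, 70.1 and 69.8 CPM in MPA, against 147, 174 and 145 CPM in vehicle (-1.12 ± 0.09), and IFIT2 (-1.18 ± 0.08), IFIT3 (-0.92 ± 0.08), GBP2 (-0.86 ± 0.08) and the transcription factor STAT2 (-0.60 ± 0.10) fell with it. Cytokine, chemokine and NF-kappa-B genes had 4 higher and 7 lower of 28, 4 lower without vehicle replicate 3. CXCL12, a chemokine of stromal cells, had 254, 224 and 221 CPM in MPA, against 500, 526 and 491 CPM in vehicle (-1.12 ± 0.07), IL33 was lower (-1.78 ± 0.34), and TNFAIP3, which ends NF-kappa-B signalling, was higher (1.21 ± 0.11). In the complement system C7, a part of the membrane attack complex, had 2.39, 1.09 and 1.98 CPM in MPA, against 0.138, 0.219 and 0.320 CPM in vehicle, and CD55, which protects cells from complement, fell (-0.63 ± 0.08). Of 17 antigen presentation genes edgeR called 0, DESeq2 0, and 2 had an unadjusted p under 0.05, while 1 was called lower without vehicle replicate 1.

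Sterol synthesis genes changed in 1 direction: 12 of 25 tested genes fell and 0 rose (median -0.47, background 6.22% lower and 5.44% higher for each list here). HMGCS1, which makes HMG-CoA for the mevalonate pathway, had 189, 159 and 142 CPM in MPA, against 274, 326 and 334 CPM in vehicle (-0.93 ± 0.13). INSIG1, the sensor that restrains the pathway and is itself induced when it is active, fell (-0.76 ± 0.10), as did FDFT1, squalene synthase (-0.58 ± 0.13), and TM7SF2, a sterol reductase, with 0.422, 0.362 and 0.614 CPM in MPA, against 1.66, 2.81 and 2.65 CPM in vehicle. The exons of TM7SF2 overlap those of VPS51, so its reads are uncertain. Fatty acid and triglyceride genes had 6 higher and 6 lower of 33, and 2 lower without vehicle replicate 2. G0S2, an inhibitor of triglyceride breakdown, had 7.12, 7.69 and 6.44 CPM in MPA, against 1.89, 1.94 and 1.53 CPM in vehicle (1.99 ± 0.17), and ACSL1, which activates fatty acids, was higher (0.68 ± 0.14). Glycolysis and hypoxia genes had 2 higher of 39 (5.13%, near the background of 5.44%) and 7 lower (17.9%, background 6.22%). The lower count was 4 without vehicle replicate 2. LDHA, lactate dehydrogenase, had 1142, 943 and 905 CPM in MPA, against 572, 636 and 610 CPM in vehicle (0.72 ± 0.12), HIF1A, the oxygen-regulated transcription factor, had 965, 1038 and 902 against 689, 520 and 567 CPM, and the enolase ENO2 fell (-0.83 ± 0.13). Of 36 oxidative phosphorylation genes edgeR called 0, 3 had an unadjusted p under 0.05 and DESeq2 called 2, both higher; without MPA replicate 3, 2 were called higher by edgeR. Of 40 ribosomal protein genes edgeR and DESeq2 called 0 and 1 had an unadjusted p under 0.05.

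Genes of the cell cycle did not pass the test in U1U2 cells, where the background was 5.44% of genes higher and 6.22% lower. Of 40 DNA replication genes edgeR called 0 (median 0.00, range -0.19 to 0.69), DESeq2 called 0 and 1 had an unadjusted p under 0.05. Without vehicle replicate 1, 1 was called higher. Of 44 mitosis genes both tools called 0 (median -0.01, range -0.47 to 0.37) and 2 had an unadjusted p under 0.05. In NT cells both lists had 0 called by edgeR, with medians of 0.13 and 0.07. In promoter cells 19 of 40 replication genes and 33 of 44 mitosis genes were called lower (background 8.4% of genes lower in that line), with medians of -0.42 and -0.53. The difference of responses, U1U2 minus promoter, was above 0 for all 40 replication genes, from 0.06 to 1.07, and for all 44 mitosis genes, from 0.05 to 0.91. Gene by gene edgeR called 0 of these differences on either list at the adjusted threshold, 16 and 34 had an unadjusted p under 0.05, and DESeq2 called 3 and 5. Genes measured in the same libraries are not independent replicates. Among brakes on the cycle and G1 cyclins 1 of 29 was called, RGCC, a regulator of cyclin-dependent kinase activity, with 71.8, 66.9 and 64.3 CPM in MPA, against 14.1, 17.3 and 14.4 CPM in vehicle (2.14 ± 0.09).

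**Figure D4:**
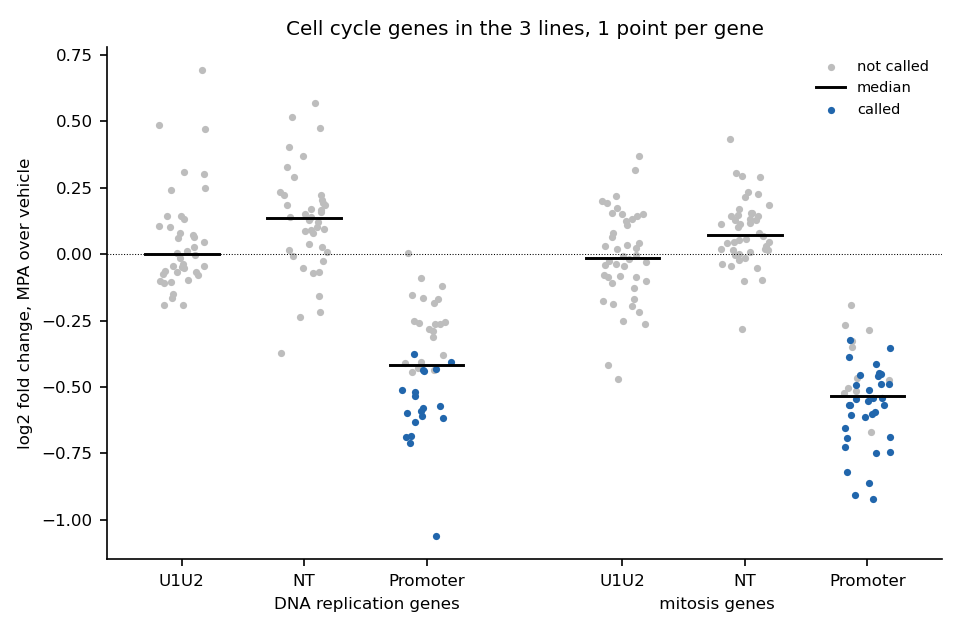
log2 fold change of MPA over vehicle for 40 DNA replication and 44 mitosis genes in U1U2, NT and promoter cells, 1 point per gene, grey where not called and blue where called, with a bar at the median. The medians are 0.00 and -0.01 in U1U2 cells, 0.13 and 0.07 in NT cells, and -0.42 and -0.53 in promoter cells.

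Set beside the other lines, which share no library with it, the U1U2 response shared more called genes with that of promoter cells than with that of NT cells. Promoter cells also had more called genes to share. The NT vehicle libraries were shallower than those of U1U2 cells, at 11.9, 20.8 and 15.4 M counts, and the part of depth was not tested. Of the 846 genes higher in U1U2 cells, 633 were also called higher in promoter cells, 74.8% of the U1U2 and 61.3% of the promoter increases, and 727 decreases were shared, 75.1% and 55.6%. With NT cells 292 increases were shared, 34.5% of the U1U2 and 76.8% of the NT list, and 395 decreases, 40.8% and 72.9%. No gene was called in opposite directions in U1U2 cells and in either other line by edgeR. Of all tested genes 922 were called in NT cells (5.93%, with 2.44% higher and 3.48% lower) and 2339 in promoter cells (15%, with 6.63% higher and 8.4% lower), and a gene called in one line and not in another is not thereby shown to differ.

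The direct test of a difference between responses called 34 genes for U1U2 minus NT (0.219%), 23 with a higher (0.148%) and 11 with a lower (0.0707%) fold change in U1U2 cells. Of the 23, 20 had estimates of the same sign in both lines, larger in U1U2 cells, and 3 had opposite signs. Of the 11, 7 had the same sign and a larger size in U1U2 cells, such as KIT (-2.21, against -1.35 in NT cells). The others were 2 of the same sign and smaller in U1U2 cells and 2 of opposite signs. The response itself was called in both lines for 9 of the 23 and in U1U2 cells only for 14. For those 14 the NT estimate is only an uncalled value, as for G0S2 (0.07 in NT cells). Among the genes whose difference was followed through the alternatives, those that held in each and with every library left out in turn were DEPP1 (2.72 ± 0.38), APCDD1 (2.51 ± 0.30), G0S2 (1.91 ± 0.25), IMPA2 (1.64 ± 0.21), RGCC (1.54 ± 0.13), FOXO1 (1.36 ± 0.17) and the carboxypeptidase CPM (1.16 ± 0.11). Each was called higher in promoter cells too, so none was particular to U1U2 cells. The log2 fold changes there were 3.57 for DEPP1, 4.48 for APCDD1, 2.07 for G0S2 and 3.72 for IMPA2. They were 2.10 for RGCC, 2.73 for FOXO1 and 3.23 for the carboxypeptidase, and edgeR called none of the differences U1U2 minus promoter. FOXO1 averaged 55.5 ± 6.80 CPM in MPA and 15.8 ± 1.69 CPM in vehicle in U1U2 cells, and 34.3 and 25 CPM in NT cells (SD, n = 3 each in U1U2). IMPA2 averaged 45.0 and 4.38 CPM in U1U2 cells and 12.7 and 3.88 CPM in NT cells. The vehicle levels of IMPA2 were close in both lines, while that of FOXO1 averaged lower in U1U2 cells, a difference that was not tested. The difference for FOS was 2.86 ± 0.48 (U1U2 2.61, NT -0.25), lost with only the 4 groups fitted (adjusted p = 0.0692), without NT vehicle replicate 2 (adjusted p = 0.153) and without NT vehicle replicate 3. FRY, a scaffold of NDR kinases, was the converse case, with 22.3 and 20.7 CPM in U1U2 MPA and vehicle and 38.2 and 19.9 CPM in NT MPA and vehicle (-0.82 ± 0.13).

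Against promoter cells 2 genes were called (0.0129%), 1 in each direction (0.00643% each). DTL, a subunit of a ubiquitin ligase that acts in S phase, had 23.6, 23.2 and 23.1 CPM in U1U2 MPA, against 23.6, 23.6 and 22.8 CPM in U1U2 vehicle, while it averaged 21.2 ± 1.54 CPM in promoter MPA and 38.9 ± 1.74 CPM in promoter vehicle (SD, n = 3 each), a log2 fold change of -0.87. The lines thus stood close together in MPA and apart in vehicle, levels whose differences were not tested. LAMA2, a laminin alpha chain, had 40.2, 38.6 and 44.8 CPM in U1U2 MPA, against 25.6, 23.9 and 23.0 CPM in U1U2 vehicle (0.77 ± 0.09). In promoter cells it averaged 57.3 ± 1.45 CPM in MPA and 17.3 ± 1.83 CPM in vehicle, a log2 fold change of 1.74. The differences were 0.87 ± 0.11 and -0.96 ± 0.13 (adjusted p = 0.00837 for each, edgeR), and neither was called with the replicate number as a block (adjusted p = 0.0506 for each), with only the 4 groups fitted, without U1U2 MPA replicate 2 or without promoter MPA replicate 1. DESeq2 called 58 genes in this comparison and edgeR without a filter 18. The low count of edgeR does not show that the 2 lines respond alike.

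**Figure D5:**
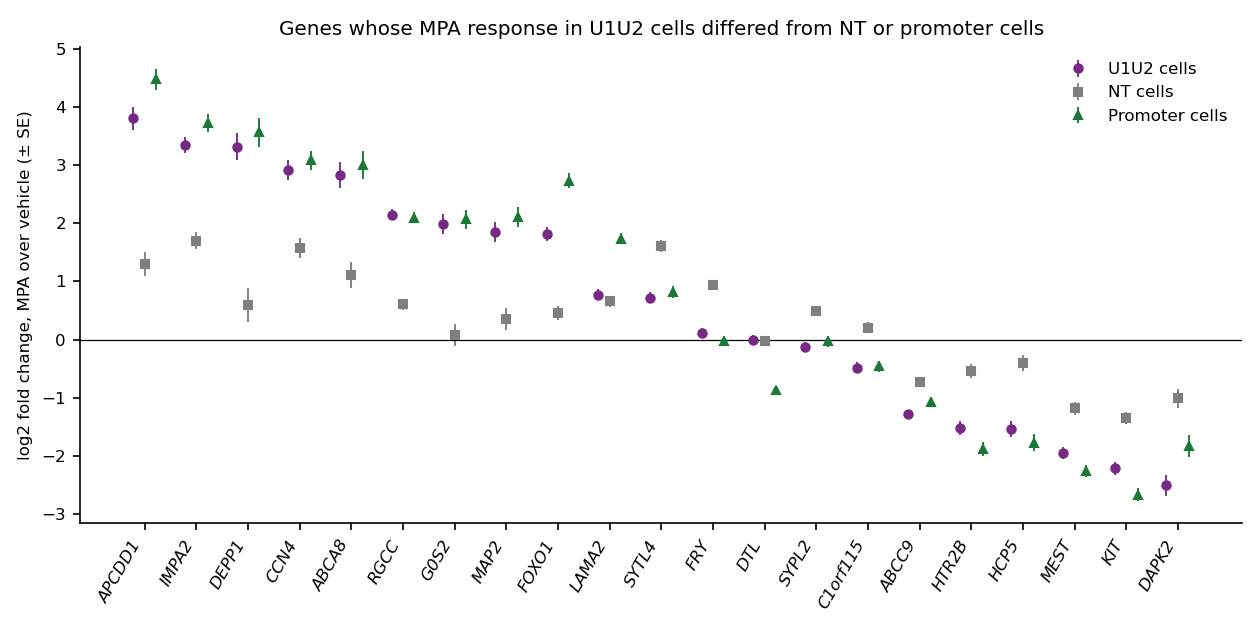
log2 fold change of MPA over vehicle, with standard errors, in U1U2 (purple), NT (grey) and promoter cells (green) for 21 genes whose response in U1U2 cells differed from another line by the test of the difference, ordered by the U1U2 value. APCDD1, IMPA2 and DEPP1 stand at 3.31 to 3.81 in U1U2 cells, 0.59 to 1.70 in NT cells and 3.57 to 4.48 in promoter cells. RORB, with 2 vehicle counts in U1U2 cells, is left out.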

How the data were processed

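RNA of 18 libraries was prepared with a stranded mRNA library kit, per the labels' protocols. The authors deposited whole-number read counts per gene for 78724 genes (40165 with a count above 0) and a table of log2 CPM values for 10402 genes. The deposited log2 values equal edgeR's log2 CPM of the counts (largest difference 5e-09) and entered no test. Per the submitters' processing notes, STAR 2.6.0c, edgeR 4.2.2 and R 4.4.1 were used with hg38. Which program counted the reads, with what strand setting and annotation, is not given in the sources used here, so genes that overlap on opposite strands or have near-identical copies are uncertain.

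Differential expression used edgeR 4.0.16 (R 4.3.3). A filterByExpr minimum count of 10 left 15558 genes, and a quasi-likelihood model with TMM factors and a term for each group took in all 18 libraries (common biological coefficient of variation 0.129). Contrasts were MPA minus vehicle in each line and the differences of these responses, U1U2 minus NT and U1U2 minus promoter, with Benjamini-Hochberg adjustment over all tested genes and calls at 0.05. Fold changes are given with standard errors, computed as the absolute log2 fold change divided by the square root of edgeR's F statistic. Levels are CPM per library. Depth (21.4 to 31.3 M counts in U1U2 libraries) limits genes with few counts, and intervals and floors cover counting error only. The labels give 1 batch. No 2 replicates agreed within sampling noise (chi-square per degree of freedom 1.95 to 35.1), and each counts as a sample. Positions are from GENCODE 29 on GRCh38, which matched 14700 tested genes.

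The 50 gene lists (1380 genes, 1126 tested) were written from general knowledge, and the members and lists were chosen with earlier results of these data known; the 24 lists plotted and several genes were chosen after their values were seen. Named genes were the 25 largest log2 changes and 15 largest changes in mean CPM each way among called genes with mean log2 CPM of at least 1, a gene symbol and no overlap between groups, and the 10 largest differences each way; list members and PGR could be named too. Alternatives were DESeq2 1.42.0, RLE factors, no filter, a minimum count of 50, only the groups compared, the replicate number as a block, and each library left out. Some results are not reported here.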

Additional observations from a re-analysis of the deposited data

Results flagged for a closer look

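The test of the difference between the MPA responses of U1U2 and NT cells called 34 genes, and the 10 largest differences each way among those whose mean level reached 1 on the log2 CPM scale are given here, with the 2 genes called against promoter cells. FOS, with a difference of 2.86, fell under that level. Values are differences of log2 fold changes, U1U2 minus the other line. Those higher in U1U2 cells than in NT cells were RORB (5.69, resting on 2 vehicle counts in U1U2 cells), DEPP1 (2.72), APCDD1 (2.51), G0S2 (1.91), ABCA8 (1.72), IMPA2 (1.64), RGCC (1.54), MAP2 (1.49), FOXO1 (1.36) and CCN4 (1.34). Those lower were DAPK2 (-1.50), HCP5 (-1.14, with exons that overlap MICA), HTR2B (-0.98), SYTL4 (-0.89, overlapping SRPX2), KIT (-0.86), FRY (-0.82), MEST (-0.77, overlapping COPG2 and MESTIT1), C1orf115 (-0.69), SYPL2 (-0.62) and ABCC9 (-0.57). FRY was called in every alternative except the fit of only the groups compared. SYTL4, RORB and DAPK2 were lost there and without 2 or 3 single libraries, and ABCA8, MAP2, CCN4, HCP5, HTR2B, KIT, MEST, C1orf115, SYPL2 and ABCC9 were each lost in 8 or more settings. Against promoter cells DTL differed by 0.87 and LAMA2 by -0.96.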

How the results depend on the processing

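The number of genes called in U1U2 cells (1814, 846 higher and 968 lower) was 1049, 489 and 560 with only the groups compared, and 1523 to 1968 in all under the other alternatives. With each library left out it ran from 1267 to 1921, with 548 to 964 higher and 681 to 957 lower. Calls in NT cells (922) were 491 with only the groups compared, and 612 to 972 with a library left out; calls in promoter cells (2339) were 2839 with only the groups compared, 1996 to 2500 under the other alternatives, and 1565 to 2365 with a library left out. The differences were less stable. For U1U2 minus NT (34 genes) DESeq2 called 123, no filter 281, the replicate block 12 and only the groups compared 8, with 8 to 47 when a library was left out. For U1U2 minus promoter (2 genes) DESeq2 called 58, no filter 18, a minimum count of 50 gave 5, and the replicate block and only the groups compared gave 0, with 0 to 3 when a library was left out. The cause was not tested. Of 361 called genes followed singly, 266 were called in every alternative and 0 reversed. HOXA10 (-0.10, not called) changed sign with single libraries left out, from -0.24 to 0.014. Same-numbered U1U2 libraries deviated in opposite directions (correlations -0.188, -0.337 and -0.219), so the numbers were not taken as pairs. Differently numbered U1U2 libraries ran from -0.123 to 0.354. Same-numbered libraries ran from -0.348 to -0.00758 in NT cells and from -0.0434 to 0.199 in promoter cells. Whether MPA and vehicle libraries were linked under another numbering was not tested. With the replicate block 1523 genes were called. Depth limits genes with few vehicle counts, such as RORB.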
